A study of Mus musculus with 9 samples.

Results

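The intercalated disc junction genes are 10 genes that build the end-to-end contacts of heart muscle cells: the gap junction genes Gja1 and Gja5, the desmosome genes Dsp, Pkp2, Jup, Dsg2 and Dsc2, the adherens junction genes Cdh2 and Ctnna3, and the filament gene Des. Their rows were found by gene symbol, and all 10 symbols were among the 20634 genes of the deposited files. The libraries were RNA-seq of whole cardiac left ventricle from C57BL/6 mice aged 6 months, in a design of 2 genotypes by 2 treatments. The genotypes were knockout of delta-sarcoglycan (KO; gene Sgcd, a membrane protein of the dystrophin complex whose loss causes a muscular dystrophy with cardiomyopathy) and wild type (WT). Ifetroban, which blocks the thromboxane-prostanoid receptor, was given in the drinking water from weaning at 25 mg/kg/day. Mice on vehicle drank plain water, and running wheels were provided at intervals to mice of the study to bring on the cardiomyopathy. There were 3 KO ifetroban, 2 KO vehicle, 2 WT ifetroban and 2 WT vehicle libraries. Nothing in the labels says how many animals stand behind a library, so p-values measure the spread between these libraries.

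Intercalated discs join neighbouring cardiomyocytes. Desmosomal cadherins (desmogleins and desmocollins) hold the 2 membranes together and are tied through plakoglobin, plakophilins and desmoplakin to desmin filaments, N-cadherin is tied through catenins to actin, and connexin channels pass current from cell to cell. Mutations of several desmosome genes cause arrhythmogenic cardiomyopathy in humans.

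Library totals ran between 21510263 and 30182955 expected counts. Sgcd was not at 0 in the KO libraries: it had 7.30, 12.9 and 13.3 CPM (library-scaled counts, with TMM factors) in KO ifetroban and 9.64 and 8.63 CPM in KO vehicle libraries, against 23.7 and 23.5 CPM in WT ifetroban and 8.36 and 20.9 CPM in WT vehicle libraries. KO over WT was -0.90 ± 0.25 on the log2 scale for Sgcd (adjusted p = 0.101 in edgeR's quasi-likelihood test, 0.0116 in DESeq2). It was -1.10 without WT vehicle replicate 1 (adjusted p = 0.0103), and -0.50 with the sets of libraries described next as a term of the model (adjusted p = 0.145). In its Sgcd level WT vehicle replicate 1 lay inside the KO range, and it is called WT by its label throughout. Its 5 macrophage markers summed to 97.4 CPM, against 152 to 171 CPM in KO and 78.7 to 101 CPM in WT libraries. KO ifetroban replicate 1 is ifetroban by its title and source and vehicle by its treatment field. It was counted as ifetroban, and several of the results that rest on it are also given with it as vehicle or without it. The libraries also fell into 2 sets by how their levels varied with transcript length. In 5 libraries (KO ifetroban 2 and 3, both WT ifetroban, and WT vehicle 2), the deviation of a gene from its mean rose with transcript length, with Spearman rho between 0.41 and 0.45 over 13051 protein-coding genes. In the other 4 (KO ifetroban 1, both KO vehicle, and WT vehicle 1) rho lay between -0.54 and -0.40. These are called the positive and the negative length-slope set. The sets cross the groups unevenly: no KO vehicle library was in the positive set and no WT ifetroban library in the negative set. WT vehicle replicate 1 was the only WT library of the negative set. Values without that library therefore set WT libraries of the positive set alone against KO libraries of both sets. Sgcd had 7.30 to 9.64 CPM in the negative set and 12.9 to 23.7 CPM in the positive set.

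Of the connexin genes, the sequences before the RefSeq transcription starts are shown because the levels of Gja1 and Gja5 lie furthest apart among junction genes of one kind. RefSeq (GRCm38.p6) places the 250 bases before the Gja1 start at chr10:56377050-56377299 on the plus strand. Those before the Gja5 start lie at chr3:97032152-97032401 on the plus strand. The deposited Gja5 gene, at 96904693 to 97077416, begins upstream of that start, so this window lies inside the gene as counted. Capitals mark matches, on either strand, to any of 4 motifs. The E-box was searched for as CANNTG. The letters searched for the AP-1 element were TGANTCA. Sp1-type boxes were looked for with the letters GGGCGG, and the core promoter element with the letters TATAAA.
Gja1: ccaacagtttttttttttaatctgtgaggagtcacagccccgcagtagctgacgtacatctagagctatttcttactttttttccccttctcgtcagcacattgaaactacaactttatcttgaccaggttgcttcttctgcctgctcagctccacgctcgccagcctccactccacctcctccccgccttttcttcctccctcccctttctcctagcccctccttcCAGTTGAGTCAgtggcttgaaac
Gja5: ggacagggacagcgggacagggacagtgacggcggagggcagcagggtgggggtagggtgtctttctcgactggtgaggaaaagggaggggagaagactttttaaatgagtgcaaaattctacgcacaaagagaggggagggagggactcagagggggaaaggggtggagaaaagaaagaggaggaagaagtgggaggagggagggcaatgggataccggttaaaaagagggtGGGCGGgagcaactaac
The Gja1 window held 1 CANNTG, at 23 to 18 bases before the start, overlapping 1 TGANTCA at 19 to 13 bases before it. The Gja5 window held 1 GGGCGG, at 17 to 12 bases before the start, and neither window held TATAAA. Among 32851 promoter windows of the same length, 66.2% held CANNTG, 6.75% held TGANTCA, 32.7% held GGGCGG and 12.4% held TATAAA. GC content was 50% in the Gja1 window and 56.4% in the Gja5 window.

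Per length of the longest coding transcript, the filament gene was the most abundant of the 10 and the minor connexin the least. Over the 9 libraries Des averaged 672 ± 87.6 CPM per kb (SD, n = 9), Gja1 182 ± 23.2 and Dsp 143 ± 37.2 CPM per kb. Jup averaged 79.7 ± 6.87, Cdh2 69.9 ± 7.53 and Pkp2 46.4 ± 3.99 CPM per kb. The desmosomal cadherins were lower than the desmosomal plaque genes, at 16.1 ± 3.38 CPM per kb for Dsg2 and 9.33 ± 1.40 for Dsc2. Ctnna3 averaged 6.12 ± 2.56 and Gja5 2.23 ± 0.43 CPM per kb. Neighbours in this order overlapped across libraries for Gja1 and Dsp, for Jup and Cdh2, and for Dsc2 and Ctnna3, and the other neighbours did not overlap.

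**Figure D1:**
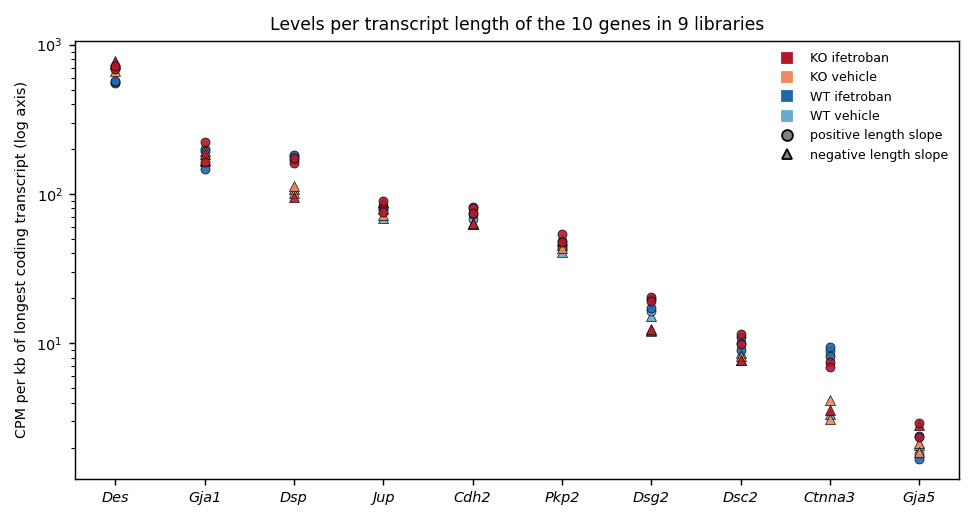
Levels of the 10 genes in CPM per kb of the longest coding transcript (log axis), 1 point per library, coloured by group, with circles for the positive and triangles for the negative length-slope set. Des is highest at 672 CPM per kb on average and Gja5 lowest at 2.23; the libraries split by set in Dsp and Ctnna3.

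The genes differed in how much they varied between libraries. The coefficient of variation of the level was 8.62% for Pkp2, 8.63% for Jup, 10.8% for Cdh2, 12.7% for Gja1 and 13.0% for Des. It was 15.1% for Dsc2, 19.3% for Gja5, 21.0% for Dsg2, 26.0% for Dsp and 41.8% for Ctnna3. The median over the 10464 tested genes with at least 5 CPM was 13.9%, so 5 of the 10 genes lay below it. The highest library of Ctnna3 was 3.04-fold its lowest, against 1.31-fold for Jup.

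Gja1 (connexin 43, the main gap junction protein of ventricular muscle; chromosome 10, 56377300 to 56390419, plus strand, mm10 as are all gene positions here) overlapped between all 4 groups. It had 589, 710 and 521 CPM in KO ifetroban and 614 and 534 CPM in KO vehicle libraries, against 469 and 619 CPM in WT ifetroban and 525.7 and 634 CPM in WT vehicle libraries. The KO mean of 594 ± 75.7 CPM (SD, n = 5) stood against a WT mean of 562 ± 78.2 CPM (n = 4). The fitted KO over WT difference, over both treatments, was 0.08 ± 0.13 on the log2 scale (SE; adjusted p = 0.796), with a 95% interval from 0.872-fold to 1.28-fold. It turned to -0.02 without WT ifetroban replicate 1.

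Gja5 (connexin 40, known from atrial muscle, conduction fibres and arterial endothelium; chromosome 3, 96904693 to 97077416, plus strand) was the scarcest of the 10. Its values were 10.4, 10.7 and 8.72 CPM in KO ifetroban and 7.86 and 6.91 CPM in KO vehicle libraries, against 6.18 and 8.74 CPM in WT ifetroban and 7.59 and 6.68 CPM in WT vehicle libraries. All 3 KO ifetroban libraries lay above both KO vehicle libraries, while the 2 WT groups overlapped. Ifetroban over vehicle in KO was 0.43 ± 0.19 on the log2 scale (unadjusted p under 0.05, adjusted p = 0.862), and 0.49 within the negative set alone, where 1 ifetroban library stands against 2 vehicle libraries. It was 0.22 with KO ifetroban replicate 1 counted as vehicle. The same difference was 0.07 ± 0.21 in WT, and the difference between these 2 effects was 0.36 ± 0.28 (adjusted p = 1.00). KO over WT was 0.25 ± 0.14 over both treatments (adjusted p = 0.417; 95% interval from 0.956-fold to 1.48-fold). The reads of Gja5 may include some of Gpr89, which overlaps it on the minus strand and had 16.2 to 20.3 CPM. Whether counting used the strand is not stated in these sources.

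Markers of the tissues where Gja5 is best known were measured beside it. The summed level of 5 arterial endothelium markers was 73.3 to 88.8 CPM in KO and 81.04 to 95.8 CPM in WT libraries, and that of 5 conduction system markers was 72.8 to 91.0 CPM in KO and 73.1 to 85.6 CPM in WT libraries. None of these 10 markers passed the test in either direction for genotype or for ifetroban over both levels of the other factor. Of the 4 atrial muscle markers listed, 3 had a row in the files. Myl7 was at most 0.222 CPM and Bmp10 at most 0.291 CPM, while Myl4, the only one tested, had 0.721 to 1.59 CPM in KO and 0.564 to 1.33 CPM in WT libraries, with 0.64 on the log2 scale for ifetroban over vehicle in KO (adjusted p = 0.862). Their part in the Gja5 values was not tested. Per kb of transcript, Gja1 stood 65.3-fold to 90.1-fold above Gja5 in KO libraries and 79.8-fold to 109-fold above it in WT libraries, with overlap.

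Dsp (desmoplakin, which ties the desmosome plaque to desmin; chromosome 13, 38151328 to 38198577, plus strand) split the libraries into high and low ones within 2 of the 4 groups. It had 913, 1552 and 1665 CPM in KO ifetroban and 976 and 1082 CPM in KO vehicle libraries, against 1724 and 1762 CPM in WT ifetroban and 1039 and 1618 CPM in WT vehicle libraries. The 5 libraries from 1552 CPM upward are the positive length-slope set and the 4 up to 1082 CPM the negative set. KO over WT was -0.35 ± 0.18 on the log2 scale (adjusted p = 0.367; 95% interval from 0.596-fold to 1.03-fold), and -0.07 with the set as a term of the model. Without WT vehicle replicate 1 the difference was -0.44 (adjusted p = 0.169).

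The plaque genes Pkp2 and Jup were the steadiest of the 10. Pkp2 (plakophilin 2, an armadillo-repeat linker of the desmosome plaque; chromosome 16, 16213318 to 16272712, plus strand) had 143, 159 and 139 CPM in KO ifetroban and 132 and 126 CPM in KO vehicle libraries, against 141 and 132 CPM in WT ifetroban and 119 and 127 CPM in WT vehicle libraries. Jup (plakoglobin, shared by desmosomes and adherens junctions; chromosome 11, 100368958 to 100397763, minus strand) had 283, 288 and 243 CPM in KO ifetroban and 255 and 231 CPM in KO vehicle libraries, against 265 and 256 CPM in WT ifetroban and 219.95 and 257 CPM in WT vehicle libraries. KO and WT libraries overlapped for both genes. KO over WT was 0.09 ± 0.08 for Pkp2 (adjusted p = 0.611; 95% interval from 0.943-fold to 1.202-fold) and 0.05 ± 0.09 for Jup (adjusted p = 0.839; 0.901-fold to 1.18-fold), both on the log2 scale. The ratio of Jup to Pkp2 per kb stayed between 1.59 and 1.85 in all 9 libraries.

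The desmosomal cadherin genes, whose products span the membrane, were lower in both KO vehicle libraries than in both WT vehicle libraries, without passing the test. Dsg2 (desmoglein 2; chromosome 18, 20558074 to 20604521, plus strand) had 71.6, 118 and 111 CPM in KO ifetroban and 69.2 and 70.7 CPM in KO vehicle libraries, against 115 and 99.0 CPM in WT ifetroban and 87.6 and 94.5 CPM in WT vehicle libraries. Dsc2 (desmocollin 2; chromosome 18, 20030633 to 20059554, minus strand) had 35.996, 53.6 and 45.8 CPM in KO ifetroban and 35.7 and 38.1 CPM in KO vehicle libraries, against 41.9 and 51.2 CPM in WT ifetroban and 39.8 and 46.7 CPM in WT vehicle libraries. KO ifetroban replicate 1 stood with the KO vehicle libraries for both genes. Under vehicle, KO over WT was -0.38 ± 0.22 for Dsg2 (adjusted p = 0.749) and -0.23 ± 0.20 for Dsc2 (adjusted p = 0.847), on the log2 scale. Within the negative set, with 1 WT vehicle library, the values were -0.32 for Dsg2 (adjusted p = 0.157) and -0.10 for Dsc2. Over both treatments KO over WT was -0.22 ± 0.14 for Dsg2 (adjusted p = 0.476; 95% interval from 0.687-fold to 1.07-fold) and -0.13 ± 0.13 for Dsc2 (adjusted p = 0.662; 0.755-fold to 1.11-fold). With the set as a term these became -0.06 for Dsg2 and 0.02 for Dsc2.

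Cdh2 (N-cadherin, the adherens junction cadherin of heart muscle; chromosome 18, 16588877 to 16809246, minus strand) was near 305 CPM in the negative set and higher in the positive set. It had 309.8, 388 and 359 CPM in KO ifetroban and 306 and 303 CPM in KO vehicle libraries, against 394 and 354 CPM in WT ifetroban and 305 and 327 CPM in WT vehicle libraries. Ctnna3 (alpha-T-catenin, an actin linker of the mixed junctions of heart muscle; chromosome 10, 63430098 to 65003667, plus strand) had 13.2, 27.5 and 25.4 CPM in KO ifetroban and 11.4 and 15.3 CPM in KO vehicle libraries, against 30.1 and 34.8 CPM in WT ifetroban and 12.3 and 32.8 CPM in WT vehicle libraries. KO ifetroban replicate 1 and WT vehicle replicate 1 stood apart from the others of their groups and beside the KO vehicle libraries. KO over WT was -0.07 ± 0.09 for Cdh2 (adjusted p = 0.736; 95% interval from 0.831-fold to 1.09-fold) and -0.65 ± 0.28 for Ctnna3 (unadjusted p under 0.05, adjusted p = 0.287; 0.418-fold to 0.978-fold), on the log2 scale. With the set as a term the values were 0.00 for Cdh2 and -0.16 for Ctnna3 (adjusted p = 0.567). Ctnna3 was at -0.81 without WT vehicle replicate 1 (adjusted p = 0.101). Per kb, Cdh2 stood 7.58-fold to 10.8-fold above Ctnna3 in the positive set and 15.03-fold to 20.4-fold above it in the negative set.

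Des (desmin, the intermediate filament that runs from Z-discs to desmosomes; chromosome 1, 75360329 to 75368579, plus strand) was higher in each of the 5 KO libraries than in 3 of the 4 WT libraries. It had 2367, 2096 and 2181 CPM in KO ifetroban and 2004 and 2259.7 CPM in KO vehicle libraries, against 1715 and 1729.8 CPM in WT ifetroban and 2271 and 1681 CPM in WT vehicle libraries. The exception was WT vehicle replicate 1, the WT library with Sgcd in the KO range and the only WT library of the negative length-slope set. With the 4 group means in the model, Des was -0.27 on the log2 scale in the positive over the negative set. KO over WT was 0.25 ± 0.11 on the log2 scale over both treatments (unadjusted p under 0.05, adjusted p = 0.301; 95% interval from 1.00-fold to 1.40-fold). Leaving that library out gave a difference of 0.37 (adjusted p = 0.0533). KO libraries at 2004 to 2367 CPM then did not overlap WT libraries at 1681 to 1729.8 CPM. This lack of overlap follows from leaving out the only WT library inside the KO range, so it is not a separate result. All WT libraries were then in the positive length-slope set, against KO libraries of both sets. The share of all genes not overlapping in that split was not counted. With every library kept and the length-slope set as a term, KO over WT was 0.15 (adjusted p = 0.391). Under ifetroban alone, KO over WT was 0.36 ± 0.15 (adjusted p = 0.489), and within the positive set, with 2 libraries of each genotype, it was 0.33 (adjusted p = 0.151). Under vehicle alone, KO over WT was 0.11 ± 0.16 (adjusted p = 0.924), and -0.01 with the set as a term. In the negative set the WT vehicle library, at 2271 CPM, lay above both KO vehicle libraries.

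**Figure D2:**
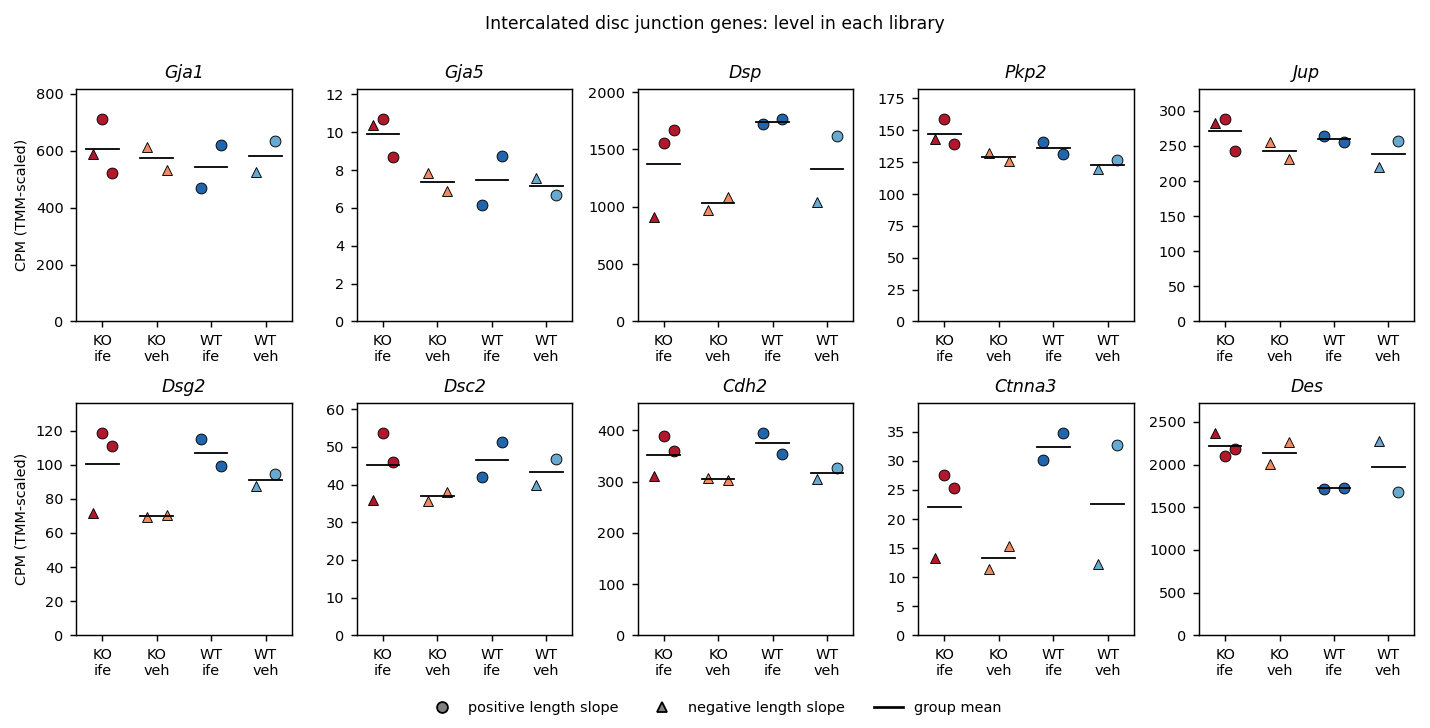
CPM of the 10 genes in each library (KO ifetroban, KO vehicle, WT ifetroban and WT vehicle from left to right in each panel), with circles for the positive and triangles for the negative length-slope set and bars for group means. Dsp and Ctnna3 split by set inside the KO ifetroban and WT vehicle groups, while Pkp2 and Jup vary little.

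Taking genotype over both treatments, 0 of the 10 genes passed an adjusted p of 0.05 in edgeR's quasi-likelihood test, in which 363 of 15549 genes did (2.33%; 321 higher and 42 lower in KO). DESeq2 and limma-voom also called 0 of the 10. At an unadjusted p under 0.05 there were 2 of the 10 genes, Ctnna3 and Des, and 2496 of all genes. Of the 10 log2 differences 5 were positive and 5 negative, with a median of -0.01 beside -0.02 over all genes tested. For 0 of the 10 genes did KO and WT libraries fail to overlap, while 7% of all tested genes did not overlap. In whole tissue, fewer cells of a type and less RNA per cell cannot be told apart. The summed level of 7 cardiomyocyte markers was 37864 to 44745 CPM in KO and 45173 to 50094 CPM in WT libraries, and 0 of the 7 passed the test (smallest adjusted p = 0.204, for Myh6). Myh6, the most abundant of the 7, had 18559.8 to 23120.7 CPM in the positive and 12230.5 to 14397.5 CPM in the negative length-slope set. Of the 7 log2 differences for KO over WT, 6 were negative and 1 was positive, with a median of -0.11 beside -0.02 over all genes tested. Tnnt2 overlapped between genotypes, at 4550.2 to 5544 CPM in KO and 4419.9 to 5746 CPM in WT libraries. The summed level of 5 macrophage markers was 152 to 171 CPM in KO and 78.7 to 101 CPM in WT libraries, and all 5 rose. The 5 fibroblast markers summed to 626 to 906 CPM in KO and 541 to 565 CPM in WT libraries, with 1 of 5 past the test. The part of these markers in the levels of the junction genes was not tested.

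Within treatments the counts were as low. Under vehicle, 0 of the 10 genes passed for KO over WT, beside 8 of all genes (0.0515%), with log2 differences of -0.76 to 0.11. At an unadjusted p under 0.05 there were 0 of the 10 and 1229 of all genes, and DESeq2 called 0 of the 10 and 144 of all genes. KO and WT vehicle libraries did not overlap for 2 of the 10, Dsg2 and Dsc2, as for 35.9% of all genes. Under ifetroban, 0 of the 10 passed, beside 6 of all genes (0.0386%), with log2 differences of -0.55 to 0.41. Des alone had an unadjusted p under 0.05, as did 1455 of all genes, and DESeq2 called 0 of the 10 and 290 of all genes. Groups did not overlap under ifetroban for Dsp and Ctnna3 (lower in KO) and Des (higher in KO), 3 of the 10 genes beside 29.1% of all genes.

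**Figure D3:**
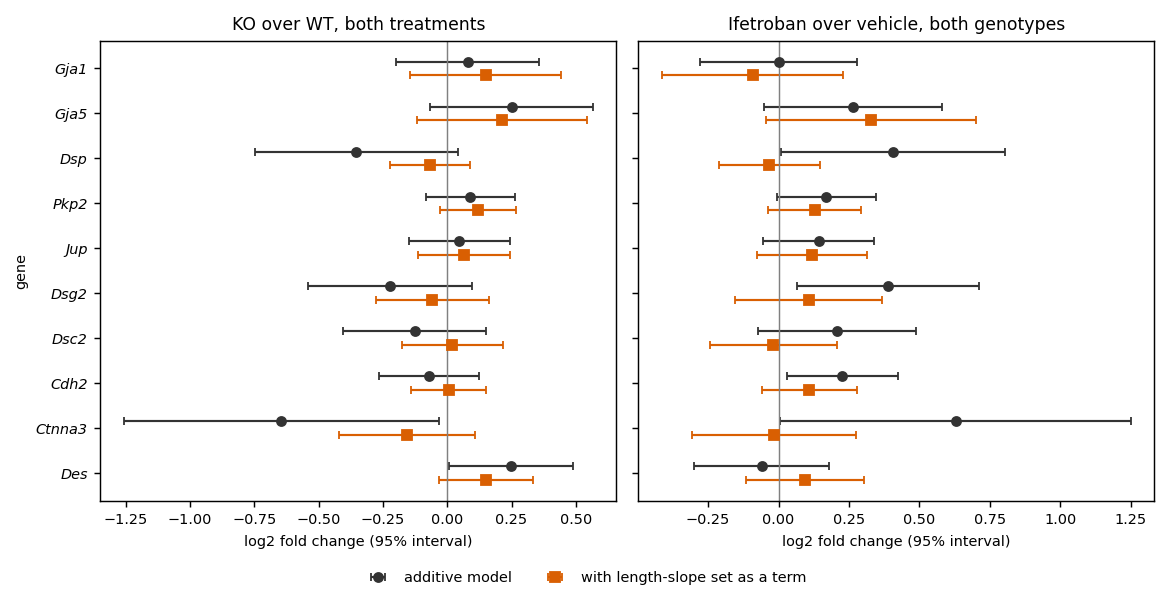
Log2 fold changes of the 10 genes with 95% intervals, for KO over WT over both treatments (left) and ifetroban over vehicle over both genotypes (right). Black circles are the additive model and orange squares add the length-slope set as a term; Ctnna3 moves to -0.16 on the left and to -0.02 on the right.

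Ifetroban over vehicle, over both genotypes, had a positive log2 difference for 9 of the 10 genes, with a median of 0.22 beside 0.01 over all genes tested. With the length-slope set as a term 6 of the 10 were positive and the median was 0.10. None of the 10 passed (edgeR's quasi-likelihood test, adjusted p of 0.545 or more), nor did any of the 15549 genes (0%). DESeq2 called 0 of the 10 and 2 of all genes, and at an unadjusted p under 0.05 there were 4 of the 10 and 1238 of all genes. These 4 were Dsp at 0.41 ± 0.18, Dsg2 at 0.39 ± 0.15, Cdh2 at 0.23 ± 0.09 and Ctnna3 at 0.63 ± 0.28. With the set as a term they were -0.03 for Dsp, 0.11 for Dsg2, 0.11 for Cdh2 and -0.02 for Ctnna3. With KO ifetroban replicate 1 counted as vehicle, the smallest adjusted p among the 10 was 0.066, for Dsg2 at 0.49 and Dsp at 0.56. Leaving that library out gave 0.52 for Dsp (adjusted p = 0.157). Ifetroban and vehicle libraries overlapped for all 10 genes, and 1.09% of all tested genes did not overlap.

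Within genotypes, ifetroban had positive log2 differences for all 10 genes in KO, from 0.05 to 0.72 with a median of 0.25, beside 0.01 over all genes. The median was 0.10 with 7 of the 10 positive when the set was a term. It was 0.04 with 7 positive within the negative set alone, and 0.16 without KO ifetroban replicate 2. Without KO ifetroban replicate 1 it was 0.35, with all 10 positive. With that library counted as vehicle it was 0.25, with 9 of the 10 positive. In edgeR's quasi-likelihood test 0 of the 10 and 0 of all genes passed in KO (0%). With the replicate number as a block, 1 of all genes passed, and it was not among the 10. Without the block, Gja5 and Dsg2 alone of the 10 had an unadjusted p under 0.05, as did 615 of all genes. Dsg2 was 0.52 ± 0.20 on the log2 scale (adjusted p = 0.862). It was 0.03 within the negative set alone and 0.70 with KO ifetroban replicate 1 counted as vehicle (adjusted p = 0.105). Libraries did not overlap for Gja5, Pkp2, Dsg2 and Cdh2, 4 of the 10 beside 20.1% of all genes. In WT, 8 of the 10 log2 differences were positive, from -0.20 to 0.52 with a median of 0.14 beside 0.01 over all genes. The median was 0.06 without WT vehicle replicate 1, 0.24 without WT vehicle replicate 2 and 0.07 with the set as a term. Again 0 of the 10 and 0 of all genes passed (0%), and at an unadjusted p under 0.05 there were 0 of the 10 and 350 of all genes. Dsp, Pkp2, Dsg2 and Cdh2 did not overlap in WT, 4 of the 10 beside 31.4% of all genes. The KO and WT comparisons of the drug share no libraries. Their difference, the interaction, passed for 0 of the 10 and 0 of all genes (0%), with 0 of the 10 and 298 of all genes at an unadjusted p under 0.05. The interaction was positive for 9 of the 10, from -0.03 to 0.36 with a median of 0.18 beside 0.02 over all genes. That median was 0.30 without WT vehicle replicate 1, and 0.01 with 5 positive without WT vehicle replicate 2. With the set as a term it was 0.07 with 7 positive. DESeq2 called 0 genes in each of these 3 comparisons.

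The length-slope sets, which were defined from these same libraries, were set against the levels of the junction genes as a description. A test of this difference was computed but is not used, since the sets come from the same data. The 2 sets did not overlap for 5 of the 10 genes, Dsp, Dsg2, Dsc2, Cdh2 and Ctnna3, all higher in the positive set, beside 28% of all tested genes. With the 4 group means in the model, the log2 difference of the positive over the negative set was 1.18 for Ctnna3, 0.74 for Dsp, 0.43 for Dsg2, 0.36 for Dsc2 and 0.20 for Cdh2. It was 0.15 for Gja1, 0.07 for Pkp2, 0.04 for Jup, -0.13 for Gja5 and -0.27 for Des, with a median over all tested genes of 0.02. Dsp, at 9592 nt the longest transcript of the 10, and the transcripts of 4630 to 5766 nt (Dsg2, Dsc2 and Cdh2) were all on the positive side; transcript length itself defined the sets. Ctnna3, at 3682 nt, stood out from Gja5 at 3668 nt, and its gene spans 1574 kb of the genome. Per kb, Dsp over Des was 0.234 to 0.321 in the positive set and 0.122 to 0.154 in the negative set.

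**Figure D4:**
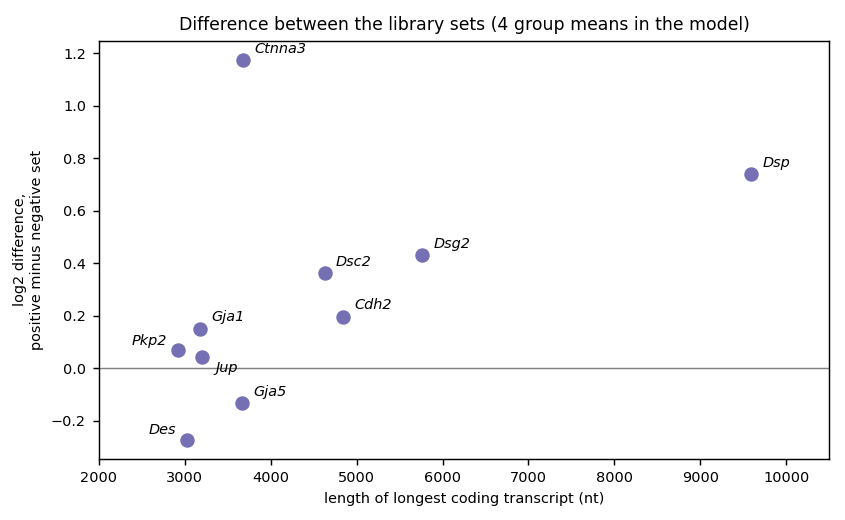
Log2 difference between the positive and the negative length-slope set, with the 4 group means in the model, against the length in nt of the longest coding transcript, 1 point per gene. Dsp at 9592 nt differs by 0.74, while Ctnna3 at 3682 nt differs by 1.18 and Gja5 at 3668 nt by -0.13.

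Of 43 other intercalated disc genes listed, 41 were in the files and 39 were tested. KO over WT passed for 2, both higher in KO, and 0 fell, with 12 positive and 27 negative log2 differences and a median of -0.08. Krt18, a keratin found with Krt8 in simple epithelia, had 0.749, 1.05 and 0.646 CPM in KO ifetroban and 0.607 and 1.28 CPM in KO vehicle libraries, against 0.242 and 0.25 CPM in WT ifetroban and 0.103 and 0.364 CPM in WT vehicle libraries. It rose by 1.82 ± 0.41 on the log2 scale (adjusted p = 0.0471), with every KO library above every WT library at very low levels. Of all tested genes, 7% did not overlap between KO and WT. Krt8 was too low to be tested, at 0 to 0.445 CPM in KO and 0 to 0.25 CPM in WT libraries. Markers of the mesothelium, an epithelium that covers the heart, summed to 6.37 to 13.3 CPM in KO and 5.69 to 11.5 CPM in WT libraries, with 0 of 4 past the test, and their part in the Krt18 values was not tested. Panx1, a channel protein related to gap junction innexins, had 2.57, 2.32 and 3.55 CPM in KO ifetroban and 3.42 and 4.06 CPM in KO vehicle libraries, against 2.10 and 1.29 CPM in WT ifetroban and 1.49 and 1.42 CPM in WT vehicle libraries. It rose by 1.01 ± 0.23 (adjusted p = 0.0471). Leaving out any 1 of the 9 libraries took Krt18 to an adjusted p of 0.0572 to 0.17. Panx1 lost its call without WT vehicle 1 or 2, WT ifetroban 2, KO vehicle 1 or 2 or KO ifetroban 3, up to an adjusted p of 0.19. Limma-voom gave adjusted p = 0.0683 for Krt18 and 0.0543 for Panx1. With the length-slope set as a term Panx1 was 1.02 (adjusted p = 0.055) and Krt18 2.05 (adjusted p = 0.0392). Flnc, an actin-binding gene described next, did not pass without that term. KO over WT was then 0.20 over both treatments (adjusted p = 0.451) and 0.35 under ifetroban (adjusted p = 0.53). With the set as a term Flnc passed at 0.35 over both treatments (adjusted p = 0.0334) and at 0.46 under ifetroban (adjusted p = 0.0244). That model called 472 and 143 of all genes in these 2 comparisons, against 363 and 6 without the term.

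Under ifetroban over both genotypes, 0 of the 39 passed, with 31 positive and 8 negative log2 differences and a median of 0.15 beside 0.01 over all genes. All 11 tested genes of the adherens junction and area composita group were on the positive side. So were 9 of 14 gap junction and channel partners, 6 of 7 desmosome genes and 5 of 7 filament genes. Every ifetroban library but KO ifetroban replicate 1 was in the positive length-slope set, and of the vehicle libraries only WT vehicle replicate 2. These counts are not given with the set as a term. The smallest p-values belonged to the actin-binding Flnc and Xirp2. Flnc had 474, 626 and 566 CPM in KO ifetroban and 353 and 339 CPM in KO vehicle libraries, against 444 and 426 CPM in WT ifetroban and 301 and 388 CPM in WT vehicle libraries. Every ifetroban library was above every vehicle library for Flnc, at 0.52 ± 0.12 on the log2 scale (adjusted p = 0.545), and at 0.31 with the length-slope set as a term (adjusted p = 0.998). Xirp2 had 1017, 1182 and 1143 CPM in KO ifetroban and 746 and 959.9 CPM in KO vehicle libraries, against 1134 and 1128 CPM in WT ifetroban and 824 and 902 CPM in WT vehicle libraries. It likewise did not overlap, at 0.39 ± 0.10 (adjusted p = 0.545), and was 0.29 with the set as a term. Of all tested genes, 1.09% did not overlap between ifetroban and vehicle libraries.

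**Figure D5:**
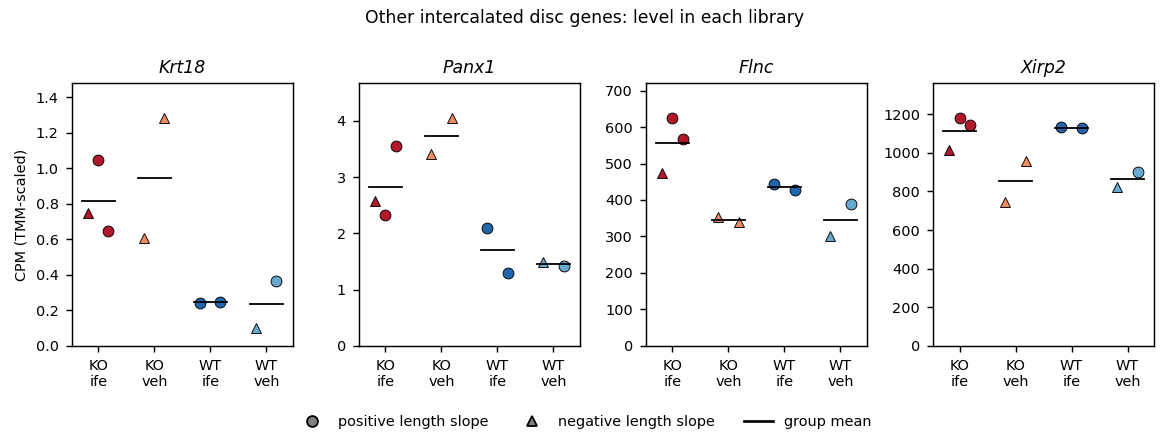
CPM of the 4 named other disc genes in each library (KO ifetroban, KO vehicle, WT ifetroban and WT vehicle from left to right), with circles for the positive and triangles for the negative length-slope set and bars for group means. Krt18 and Panx1 are higher in all 5 KO libraries; Flnc and Xirp2 are higher in all 5 ifetroban libraries.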

How the data were processed

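RNA of left ventricle was sequenced in 9 libraries. The deposited files hold expected counts per gene; per the submitters' processing notes, bcl2fastq, STAR and Partek were used with the mm10 build (versions and strandedness were not stated in the sources used here). Deposited gene ends were 1 base beyond GENCODE M21 and were lowered by 1, after which 15551 of 19670 shared symbols matched. Expected counts, 81.2% of them within 0.01 of a whole number, were rounded. Groups followed the sample titles. In edgeR 4.0.16 (R 4.3.3), genes were kept by filterByExpr (minimum count 10; 15549 genes), scaled by TMM and tested by the robust quasi-likelihood test, with 4 group means for single contrasts and genotype plus treatment for the pooled ones, Benjamini-Hochberg adjusted over all genes tested, threshold 0.05. Intervals are 95% and use the test's degrees of freedom. limma 3.58.1 and DESeq2 1.42.0 were alternatives; the code was tested on simulated data. Replicates of a group differed by 10.99 to 19.8 in chi-square per degree of freedom within a length-slope set, and by 51.2 to 65.4 across the sets. Each library was counted as a sample, though these values cannot show whether libraries come from separate animals.

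The members and all lists were chosen with earlier results of these data known. All 10 members are named with values; fold changes are given for genotype over both treatments and elsewhere where the unadjusted p was under 0.05, with others as ranges. The log2 values given besides these (Gja5 in WT and in the interaction, Dsg2, Dsc2 and Des under vehicle, Flnc for genotype, Myl4) were added after their values were seen. Other disc genes are named where past the threshold, otherwise the 2 smallest p.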

Additional observations from a re-analysis of the deposited data

Results flagged for a closer look

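Within the KO, WT, ifetroban and vehicle libraries, 60 groups of 4 or 5 values (15 genes) were searched for a library far from the rest, with gap over range above Dixon's 95% critical value; chance gives about 1 in 20, and 5 were found. Dsp was 913 CPM in KO ifetroban replicate 1, with the next ifetroban library at 1552 CPM. Dsp was 1618 CPM in WT vehicle replicate 2, with the next vehicle library at 1082 CPM, and Cdh2 was 327 CPM in the same library, with the next at 306 CPM. Sgcd was 20.9 CPM there, with the next vehicle library at 9.64 CPM. Des was 2271 CPM in WT vehicle replicate 1, with the next WT library at 1729.8 CPM. KO ifetroban replicate 1 and WT vehicle replicate 1 belong to the negative length-slope set and WT vehicle replicate 2 to the positive set; the part of the sets in these values was not tested.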

How the results depend on the processing

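The count of junction genes past the threshold was 0 in each of 7 comparisons under every alternative run for it; single sets and fits of only the groups compared were run for 4 of the 7. For the 17 member folds of the naming rule, 324 of 329 values under 21 alternatives kept their direction and none crossed the threshold. Over all 10 genes and 7 comparisons, 96 of 1410 values turned, 20 of them with the length-slope set as a term. Among the 17 folds, the 5 that turned were 0.00489 for Cdh2 and 0.0201 for Dsc2 (genotype, length-slope set as a term), -0.0167 for Ctnna3 and -0.0325 for Dsp (ifetroban, set as a term) and -0.0209 for Gja1 (genotype, without WT ifetroban replicate 1; the range with 1 library left out was -0.0209 to 0.1476); the cause was not tested. Counts over all genes moved more: genotype over both treatments gave 51 to 896 beside 363, under ifetroban 2 to 290 beside 6, and under vehicle 2 to 247 beside 8. Correlations ran from -0.06 to 0.50 for same-numbered libraries and from -0.50 to 0.30 for the others. In groups of 2 libraries these values mirror each other, so they cannot settle whether replicate numbers pair the samples. With the replicate block 0 junction genes and 550 genes in all passed for genotype over both treatments. The block gave 56 genes in all for genotype under vehicle and 172 under ifetroban. The levels of all 10 moved by less than their SD under total-count scaling. With 2 or 3 libraries a group, and Gja5 at 148 to 336 counts, modest differences cannot be resolved.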

Other observations

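Genes with a long genomic span had higher medians in the positive length-slope set, less so at matched transcript length. The median log2 difference of the positive over the negative set was -0.06 for 9326 protein-coding genes spanning under 50 kb, 0.26 for 3035 genes of 50 to 200 kb, 0.40 for 567 genes of 200 to 500 kb and 0.48 for 123 genes over 500 kb. Among transcripts of 3000 to 4500 nt the medians were 0.09, 0.14, 0.12 and 0.34 over the same spans, the last from 18 genes. Ctnna3 (1574 kb, 3682 nt) differed by 1.18. Sgcd (1093 kb) differed by 1.06, and its transcript of 2450 nt lies outside that length range. The sets were defined from these libraries, so these are descriptions, and no test of them is used.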
